A study of Homo sapiens with 12 samples.

Results

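Chromosome 19 carried 1056 of the 24654 distinct GATA1 and TAL1 intervals listed for the nuclear chromosomes of control K562 cells, a human erythroleukemia line. An interval is a listed stretch of DNA where a factor was called bound by chromatin immunoprecipitation and sequencing (ChIP-seq). Members were all distinct rows of the GATA1 and TAL1 lists on chromosome 19 (build hg19). They were divided by midpoint into 4 stretches set beforehand as zinc finger gene clusters and the rest of the chromosome. The stretches were given as chr19:19700000-24400000 (stretch 1, mainly 19p12), chr19:36600000-38300000 (stretch 2, 19q13.12), chr19:44300000-45000000 (stretch 3, 19q13.31) and chr19:52300000-59128983 (stretch 4, 19q13.41 to 19q13.43). They held 131 intervals in 13.9 Mb. The rest held 924 in 41.0 Mb, and 1 further interval lay in the centromeric bands (19q11, GATA1 list only), which are left out of lengths and densities. Of the 1056, 303 were in both lists, 668 in the GATA1 list only and 85 in the TAL1 list only; over chromosomes 1 to 22 and X these classes made up 28.5%, 63.8% and 7.65% of distinct intervals.

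The series has 12 libraries from K562 cells labelled control, GATA1 knockdown or TAL1 knockdown, the knockdowns made with lentiviral short hairpin RNA. Antibodies were against GATA1, TAL1, LDB1 or acetylated H3K27, beside an input, on chromatin cut with micrococcal nuclease to the size of single or paired nucleosomes. The lists used here are those of GATA1 and of TAL1 in control cells, 1 library each; the labels do not say whether control cells carried a control hairpin. The title of the TAL1 library carries the tag Sp, and that of the GATA1 library does not. Whatever the tag stands for cannot be told apart from the factor. The other 10 libraries were not analysed here. K562 is 1 leukemic line and stands for red cell precursors only in part. With 1 library per factor no value has a replicate error, and no p-value is given. The 95% intervals (exact Poisson for densities, exact Clopper-Pearson for shares and for ratios of densities) treat listed intervals as independent units and cover counting error only. Neighbouring intervals are not independent, so the true uncertainty is wider. The lists carry no height, score or read number, so the depth of both libraries is unknown.

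GATA1 is a zinc finger transcription factor that drives red cell and megakaryocyte genes and binds the letters GATA with a preferred base on each side. TAL1, of the basic helix-loop-helix family, binds E-box sequences as a dimer with an E protein and joins GATA1 through LMO2 and LDB1. Chromosome 19 is the most gene-dense human chromosome, and it also holds large tandem clusters of C2H2 zinc finger genes. Many of these encode KRAB domain proteins, which recruit the corepressor TRIM28 to transposable elements, and the clusters themselves are known for heterochromatin marked by H3K9me3 in many cell types. Tandem copies resemble each other in sequence, and the labels do not say how reads with several possible placements were treated.

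The interval sequences themselves could not be read, because no genome of build hg19 was used here. RefSeq promoter sequences (GRCh38.p14, 250 bases before to 50 after the gene start) show what the GATA1 motif looks like in genes of both kinds. They are printed for the 2 genes with most GATA motifs in a list of 20 erythroid and other genes. They are also printed for the 2 with most among zinc finger named genes. Ties were taken by name in the list and by position among zinc finger genes. Capitals mark the motif on either strand, in any of its 4 forms: AGATAA or AGATAG, and with the other first letter TGATAA or TGATAG. KLF1 (chr19:12887152-12887451, minus strand) encodes an erythroid Krüppel-like activator of globin genes, and LYL1 (chr19:13102809-13103108, minus strand) a basic helix-loop-helix relative of TAL1. ZNF345 (chr19:36850626-36850925, plus strand) and ZFP30 (chr19:37656212-37656511, minus strand) encode C2H2 zinc finger proteins and are in band 19q13.12. Whether a listed interval covers any of these promoters was not determined, since the lists and the sequences are in different builds.
KLF1: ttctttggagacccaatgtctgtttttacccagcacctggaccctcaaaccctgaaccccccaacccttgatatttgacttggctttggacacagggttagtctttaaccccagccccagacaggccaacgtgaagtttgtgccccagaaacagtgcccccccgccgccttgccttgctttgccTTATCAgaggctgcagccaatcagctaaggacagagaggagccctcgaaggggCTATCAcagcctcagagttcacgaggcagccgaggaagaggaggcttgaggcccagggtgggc
LYL1: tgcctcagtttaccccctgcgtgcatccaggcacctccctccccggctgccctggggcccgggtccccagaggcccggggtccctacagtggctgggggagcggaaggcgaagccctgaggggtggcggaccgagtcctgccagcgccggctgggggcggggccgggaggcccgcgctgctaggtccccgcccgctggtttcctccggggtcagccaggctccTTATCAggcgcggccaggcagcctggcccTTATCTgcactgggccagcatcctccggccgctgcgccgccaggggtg
ZNF345: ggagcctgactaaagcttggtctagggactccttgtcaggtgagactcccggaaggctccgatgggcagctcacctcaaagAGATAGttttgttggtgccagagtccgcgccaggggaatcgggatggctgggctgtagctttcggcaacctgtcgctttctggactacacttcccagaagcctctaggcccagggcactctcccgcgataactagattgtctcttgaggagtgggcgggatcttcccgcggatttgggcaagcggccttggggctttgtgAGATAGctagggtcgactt
ZFP30: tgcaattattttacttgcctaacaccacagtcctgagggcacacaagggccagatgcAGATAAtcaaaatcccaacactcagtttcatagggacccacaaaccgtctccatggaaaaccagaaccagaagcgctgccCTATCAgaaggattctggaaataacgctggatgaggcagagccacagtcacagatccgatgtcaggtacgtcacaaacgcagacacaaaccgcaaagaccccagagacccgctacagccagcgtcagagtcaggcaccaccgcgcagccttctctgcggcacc

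Counted over all 4 forms, GATA motifs were about as frequent in promoters of zinc finger genes as in other promoters. Of 257 coding genes on chromosome 19 with a ZNF, ZFP or ZSCAN name, 224 had a promoter in the table, and 44 of those (19.6%, 14.7 to 25.5%) held at least 1 of the 4 forms. Among 961 promoters of other coding genes on the chromosome the share was 16.3% (14.1 to 18.8%), and over 15843 coding promoters of all chromosomes it was 19.7%. AGATAA or TGATAA alone, the forms GATA1 is best known for, were present in 7.59% (4.48 to 11.9%), 9.99% (8.17 to 12.1%) and 12.0% (11.5 to 12.54%) of the same 3 sets, with intervals that overlap. E-boxes of the forms CAGCTG or CAGATG, searched on both strands, were present in 24.1% (18.7 to 30.3%), 26.1% (23.4 to 29.0%) and 26.98%. An E-box can share letters with a GATA motif, and both were counted. Median GC content was 60% for zinc finger promoters and 64% for the others on chromosome 19. In the list of 20 genes, 19 had a promoter in the table and 4 held a motif, namely KLF1, LYL1, EPOR, the erythropoietin receptor, and ICAM4, which carries the LW blood group. This share, 4 of 19, is near the 19.7% over all coding promoters and does not set the list apart. A match is a string of letters and not a binding site.

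Both factors had fewer intervals per megabase in the zinc finger stretches than in the rest of chromosome 19. GATA1 had 124 intervals, or 8.90 per Mb (7.40 to 10.6), in the stretches and 846, or 20.6 per Mb (19.3 to 22.1), in the rest. TAL1 had 45 intervals, or 3.23 per Mb (2.36 to 4.32), in the stretches and 343, or 8.37 per Mb (7.50 to 9.30), in the rest. The density ratio was 0.431 (0.354 to 0.521) for GATA1 and 0.386 (0.276 to 0.528) for TAL1, so the intervals of the ratios overlap widely between the factors. The stretches made up 25.4% of the chromosome outside its centromeric bands and held 12.4% of its distinct intervals. Bases covered by intervals of either list came to 0.348% of the stretches and 0.771% of the rest.

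The rest of chromosome 19 stood well above the other chromosomes in density, while the 4 stretches together were near them, with stretch 4 above and stretches 1 to 3 below. On the other chromosomes (1 to 18, 20 to 22 and X) there were 7.55 GATA1 and 2.95 TAL1 intervals per Mb. The stretches therefore had 1.18 times (0.980 to 1.41) the GATA1 density and 1.10 times (0.798 to 1.47) the TAL1 density of other chromosomes, and both intervals include 1. Without stretch 4 they had 5.35 GATA1 and 1.69 TAL1 intervals per Mb, or 0.709 (0.502 to 0.974) and 0.573 (0.296 to 1.001) times the density of other chromosomes. With stretch 1, 2 or 3 left out in turn, the GATA1 ratio was 1.22 to 1.39 with a lower bound above 1, and the TAL1 ratio 1.15 to 1.29 with an interval that included 1. Taken singly, stretches 1, 2 and 3 had 5.74 (3.79 to 8.36), 5.29 (2.42 to 10.05) and 2.86 (0.346 to 10.3) GATA1 intervals per Mb. Each of these 95% intervals includes the 7.55 of other chromosomes, and those for TAL1 include the 2.95. Stretch 4 had 12.6 (10.1 to 15.6) GATA1 and 4.83 (3.33 to 6.79) TAL1 intervals per Mb. For the rest of chromosome 19 the ratios to other chromosomes were 2.73 (2.55 to 2.93) and 2.84 (2.54 to 3.16). Taken whole, chromosome 19 ranked 1 of 23 in density for both factors, at 17.7 GATA1 and 7.06 TAL1 intervals per Mb. Chromosome 1 was next for GATA1 at 13.4 per Mb, and chromosome 17 next for TAL1 at 5.62 per Mb.

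**Figure D1:**
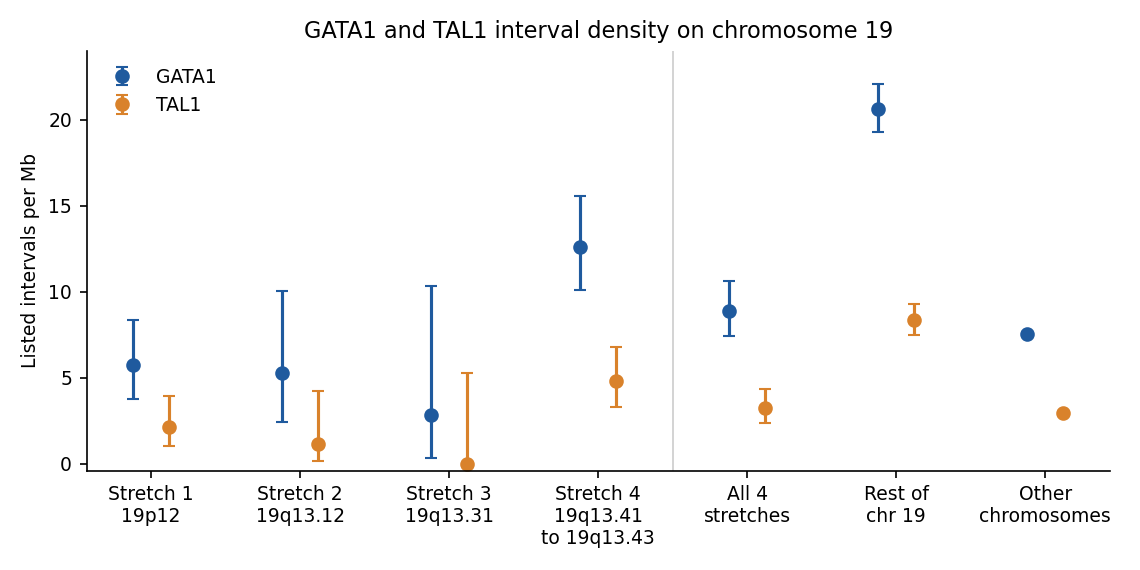
Listed GATA1 (blue) and TAL1 (orange) intervals per Mb in each zinc finger stretch, in all 4 together, in the rest of chromosome 19 and on the other chromosomes; bars are exact 95% Poisson intervals, hidden by the points for the other chromosomes. Every stretch lies below the rest of chromosome 19 for both factors, and stretch 4, at 12.6 GATA1 intervals per Mb, is the highest of the 4.

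The 4 stretches were unlike each other. Stretch 1 held 29 distinct intervals (6.17 per Mb), stretch 2 held 9 (5.29 per Mb), stretch 3 held 2 (2.86 per Mb) and stretch 4 held 91 (13.3 per Mb), against 22.5 per Mb in the rest. Relative to the rest of the chromosome these densities were 0.274 (0.182 to 0.396), 0.235 (0.107 to 0.448), 0.127 (0.0153 to 0.459) and 0.591 (0.471 to 0.734), so the upper bound lay below 1 in each stretch. Not all of stretch 4 was rich in zinc finger genes. It takes in band 19q13.42, where 17 of 104 coding genes (16.3%) had a zinc finger name. In 19p13.2 to 19p13.12, part of the rest, 41 of 258 (15.9%) had one. Band 19q13.42 held 44 of the 91 intervals of stretch 4. Without stretch 4, the density ratio was 0.259 (0.182 to 0.359) for GATA1 and 0.202 (0.103 to 0.358) for TAL1. The short arm part of the rest had 24.6 intervals per Mb and the long arm part 20.6, both well above the 9.40 per Mb of the stretches.

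Within the stretches the intervals were gathered in a few places. In stretch 1, 20 of 29 intervals lay between 21 and 22 Mb, where 7 were in both lists. A run of 2024 kb with no interval followed (chr19:21808686-23832649), the longest on the chromosome outside the centromere, and another of 1126 kb preceded them (chr19:20055046-21180788). The 5 intervals of stretch 1 beyond 22 Mb were all in the GATA1 list only, between 2037 and 2302 kb from the nearest TAL1 interval. In stretch 4, the megabase from 55 to 56 Mb held 29 of the 91 intervals, and the one from 57 to 58 Mb held 2, both at its far end after a run of 1088 kb with none (chr19:56858830-57946390).

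Stretches 2 and 3 held few intervals, most of them in the GATA1 list only. The 9 intervals of stretch 2 were 7 in the GATA1 list only and 2 in both (chr19:37262446-37262898 and chr19:38184275-38184382). No TAL1-only interval lay there. The 2 intervals of stretch 3 were both in the GATA1 list only (chr19:44455098-44455603 and chr19:44808908-44809349), 176 and 247.5 kb from the nearest TAL1 interval, and TAL1 had 0 intervals in that stretch. The exact 95% interval for that count of 0 reached 5.27 per Mb, against a TAL1 density of 8.37 per Mb in the rest.

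Counts in 1 Mb bins overlapped between the stretches and the rest. The 11 bins wholly inside the stretches held between 0 and 29 distinct intervals, with a median of 7, and the 38 bins wholly in the rest held between 1 and 45, with a median of 23. Fewer than 10 intervals were found in 6 of the 11 bins in the stretches and in 6 of the 38 in the rest. The bins with most intervals were all in the rest, with 45 between 49 and 50 Mb (19q13.33), 43 between 10 and 11 Mb (19p13.2) and 41 each between 1 and 2 Mb (19p13.3) and between 45 and 46 Mb. Outside the centromeric bands and the bins that touch them, the bin with fewest was 22 to 23 Mb with 0, in stretch 1. A single interval each lay in 20 to 21 Mb, also in stretch 1, and in 31 to 32 Mb (19q12) and 43 to 44 Mb, both in the rest. In 100 kb windows, 80 of 139 (57.6%) held no interval in the stretches, against 115 of 406 (28.3%) in the rest.

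**Figure D2:**
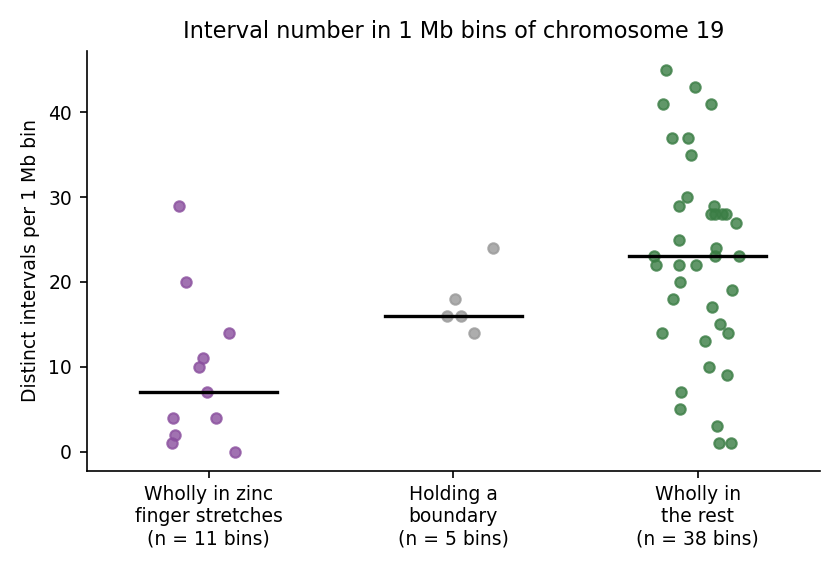
Distinct intervals of either list in each 1 Mb bin of chromosome 19 by whether the bin lies wholly in the zinc finger stretches (11 bins), holds a boundary (5 bins) or lies wholly in the rest (38 bins); points are bins, spread sideways for legibility, and lines are medians. The groups overlap, with medians of 7 and 23 for bins in the stretches and in the rest.

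Gene content by band was set beside these densities, with intervals counted in hg19 bands and genes of RefSeq GRCh38.p14 counted in the bands of that build, so no position was carried from one build to the other. Bands 19p13.2, 19p13.13 and 19p13.12 were joined, because their borders differ between the builds. Zinc finger named genes made up 33 of 35 coding genes in 19p12, among them ZNF91, which is known to repress SVA retroelements, and 60 of 92 in 19q13.43, among them ZNF274, known to bind other zinc finger genes at their last exons. These bands had 5.91 and 9.19 distinct intervals per Mb. The densest bands, 19q13.33 with 30.9 and 19q13.32 with 30.0 per Mb, had 3 zinc finger named genes of 132 and 1 of 87. FTL, the ferritin light chain gene, is in 19q13.33, and BCAM, the Lutheran blood group gene, and APOE are in 19q13.32. The joined bands from 19p13.2 to 19p13.12, home of KLF1, EPOR, LYL1, ICAM4, CALR, PRDX2, JUNB, NFIX and DNMT1, had 21.8 per Mb, with 41 zinc finger named genes of 258. These names say which genes share a band with the intervals and assign none of them to an interval.

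Interval density followed the density of genes without a zinc finger name more closely than that of all genes. Over the 15 bands or joined bands, Pearson's r between distinct intervals per Mb and coding genes per Mb was 0.72 (Spearman's rho 0.65), and with the coding genes that have no zinc finger name it was 0.92 (rho 0.93). The 2 bands farthest from the median gene density were then left out, separately for each gene density. For all coding genes, without 19q12 and 19q13.13, r was 0.58. For those without a zinc finger name, without 19p12 and 19q12, r was 0.89. These 2 values rest on different bands and are not a like comparison. For GATA1 alone r was 0.92 and for TAL1 alone 0.80 with genes that have no zinc finger name. These are descriptions over bands of the same 2 libraries, which differ in length from 0.4 to 9.4 Mb, and carry no p-value; among the bands of at least 2 Mb r was 0.91. In 19q13.43 there were 0.283 intervals per coding gene, against 0.775 in 19p13.3, but per coding gene without a zinc finger name the values were 0.812 and 0.791. Single bands departed from the trend. In 19q13.42, with 17 zinc finger named genes of 104, there were 0.506 intervals per coding gene without a zinc finger name. Band 19p12, with 8.14 coding genes per Mb, had 26 intervals and only 2 coding genes without a zinc finger name. Its 0.743 intervals per coding gene were near the 0.775 of 19p13.3, unlike the 0.283 of 19q13.43. Band 19q12, with 9 coding genes in all, had 18 intervals.

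**Figure D3:**
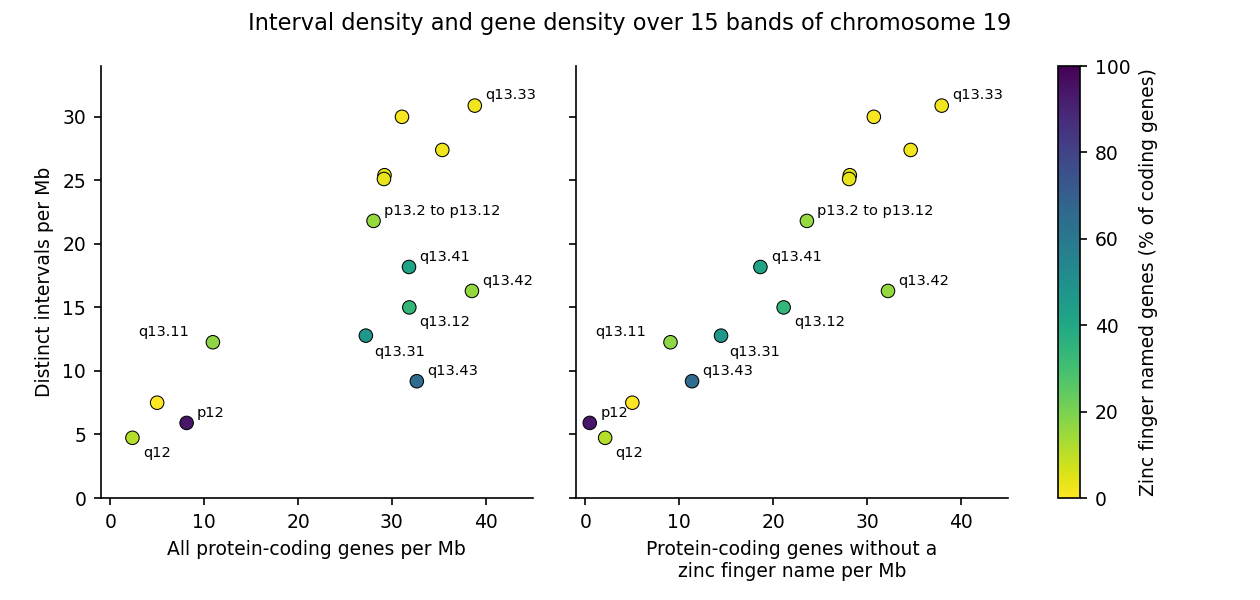
Distinct intervals per Mb (hg19) against all coding genes per Mb (left) and coding genes without a zinc finger name per Mb (right; both RefSeq GRCh38.p14) for 15 bands or joined bands of chromosome 19, coloured by the share of coding genes with a zinc finger name. On the left 19q13.43 and 19q13.12 have as many genes as bands with 25 or more intervals per Mb but fewer intervals, and on the right most bands lie along a line, with 19q13.42 below it.

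No difference in class was detectable between the compartments, although the number of intervals per megabase differed. In the stretches 38 of 131 distinct intervals (29.0%, 21.4 to 37.6%) were in both lists, 86 (65.6%, 56.9 to 73.7%) in the GATA1 list only and 7 (5.34%, 2.18 to 10.7%) in the TAL1 list only. The rest had 265 of 924 (28.7%, 25.8 to 31.7%) in both, 581 (62.9%, 59.7 to 66.0%) in the GATA1 list only and 78 (8.44%, 6.73 to 10.4%) in the TAL1 list only. All these shares were near the 28.5%, 63.8% and 7.65% of the nuclear chromosomes together, and the 95% interval of each share in the stretches includes the value in the rest. Each class was thinner in the stretches, with a density ratio to the rest of 0.422 (0.292 to 0.595) for intervals in both lists, 0.436 (0.343 to 0.547) for GATA1-only and 0.264 (0.103 to 0.570) for TAL1-only intervals.

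The shares of each factor's own list showed no detectable difference either. Of GATA1 intervals, 30.6% (22.7 to 39.6%) in the stretches and 31.3% (28.2 to 34.6%) in the rest were also TAL1 intervals, a difference of -0.68 percentage points (Newcombe's 95% interval -8.77 to 8.44), beside 30.9% of GATA1 intervals over all nuclear chromosomes. Of TAL1 intervals, 84.4% (70.5 to 93.5%) in the stretches and 77.3% (72.5 to 81.6%) in the rest were also GATA1 intervals, a difference of 7.18 points (-6.67 to 16.3), beside 78.9% over all nuclear chromosomes. With 45 TAL1 intervals in the stretches, a difference of several points in either direction could not be told from none. By stretch, 29.6% of 27 GATA1 intervals in stretch 1, 22.2% of 9 in stretch 2, 0 of 2 in stretch 3 and 32.6% of 86 in stretch 4 were also TAL1 intervals.

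The 7 TAL1-only intervals of the stretches were in stretch 1 (2) and stretch 4 (5). Those of stretch 1 (chr19:21298324-21298637 and chr19:21323904-21324151) lay on either side of a group of GATA1 intervals, 11.2 and 11.6 kb from the nearest. In stretch 4 the distances to the nearest GATA1 interval were 0.577, 0.704, 14.1, 20.9 and 45.4 kb. A GATA1 interval within 10 kb was thus found for 2 of 7 (28.6%, 3.67 to 71.0%), against 43 of 78 (55.1%, 43.4 to 66.4%) in the rest, and the intervals of these shares overlap. GATA1-only intervals lay a median of 55.2 kb from a TAL1 interval in the stretches and 28.5 kb in the rest. A lower density of the other list by itself gives longer distances, and no correction for density was made.

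Intervals stood alone more often in the stretches. Neighbouring intervals were joined up to a set gap (the longest gap joined was 12.48 kb and the shortest left apart 12.58 kb). On that rule, 69 of 131 (52.7%, 43.8 to 61.5%) had no neighbour in the stretches, against 313 of 924 (33.9%, 30.8 to 37.0%) in the rest. Clusters of 3 or more held 36 (27.5%, 20.05 to 36.0%) and 373 (40.4%, 37.2 to 43.6%). Fewer intervals per megabase give fewer neighbours by themselves, and no correction for density was made. Both factors were present in 8 of 9 clusters in the stretches and in 74 of 97 in the rest. The 9 clusters are few, at least 1 ran across a stretch boundary, and no share over other chromosomes is given. No difference is read from these counts. GATA1 intervals in clusters were also TAL1 intervals in 46.9% of 32 cases in the stretches (29.1 to 65.3%) and in 35.4% of 333 in the rest (30.3 to 40.8%), and those standing alone in 27.3% of 66 (17.03 to 39.6%) and 28.6% of 287 (23.4 to 34.2%).

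A cluster that crossed a boundary was assigned whole to the side with most of its members. On that rule the 3 clusters with most intervals in the stretches had 7, 7 and 6 members. At chr19:21776700-21808685 in 19p12 there were 7 GATA1 intervals, 3 of them also in the TAL1 list. The cluster at chr19:52281044-52310862 in 19q13.41 ran across the lower boundary of stretch 4. Its members outside the stretch included, it held 4 intervals in both lists, 2 in the GATA1 list only and 1 in the TAL1 list only. At chr19:21298324-21324151 in 19p12 there were 2 in each class. A cluster of 4 GATA1-only intervals within 10.4 kb (chr19:55718443-55728812, 19q13.42) was the one in the stretches without TAL1. In the rest the largest was at chr19:49370435-49395595 in 19q13.33, with 9 GATA1 intervals of which 7 were also TAL1 intervals. Those with 8 members were at chr19:10397547-10427187 in 19p13.2 (3 in both lists, 3 GATA1 only, 2 TAL1 only), chr19:18475799-18503542 in 19p13.11 (3, 4 and 1) and chr19:45393608-45430706 in 19q13.32 (3 in both lists and 5 GATA1 only).

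Wide intervals made up a larger share of GATA1-only intervals in the stretches than in the rest. This was seen among those standing alone, and not among those in pairs or clusters or for intervals in both lists. The median width of GATA1-only intervals was 377 bp in the stretches (95% order-statistic interval 287 to 450 bp) and 289 bp in the rest (276 to 308 bp), so the intervals of the medians overlap. Intervals of at least 500 bp, a limit chosen after the widths were seen, made up 27 of 86 GATA1-only intervals in the stretches (31.4%, 21.8 to 42.3%) and 97 of 581 in the rest (16.7%, 13.8 to 19.98%), a difference of 14.7 points (Newcombe's 95% interval 5.29 to 25.5). On other chromosomes the share was 11.9% (11.3 to 12.4%). Intervals in both lists had a median of 304 bp (252 to 384 bp) in the stretches, 354 bp (331 to 369 bp) in the rest and 375 bp (369 to 380 bp) on other chromosomes, and 4 of 38 in the stretches reached 500 bp. On the other chromosomes intervals in both lists were the wider class, by 375 bp against 263 bp. In the stretches the order of the medians was the reverse, 304 bp in both lists and 377 bp in the GATA1 list only, with 95% intervals that overlap. Stretch 1 did not share the reversed order, with 310.5 bp for 8 intervals in both lists and 270.0 bp for 19 in the GATA1 list only.

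**Figure D4:**
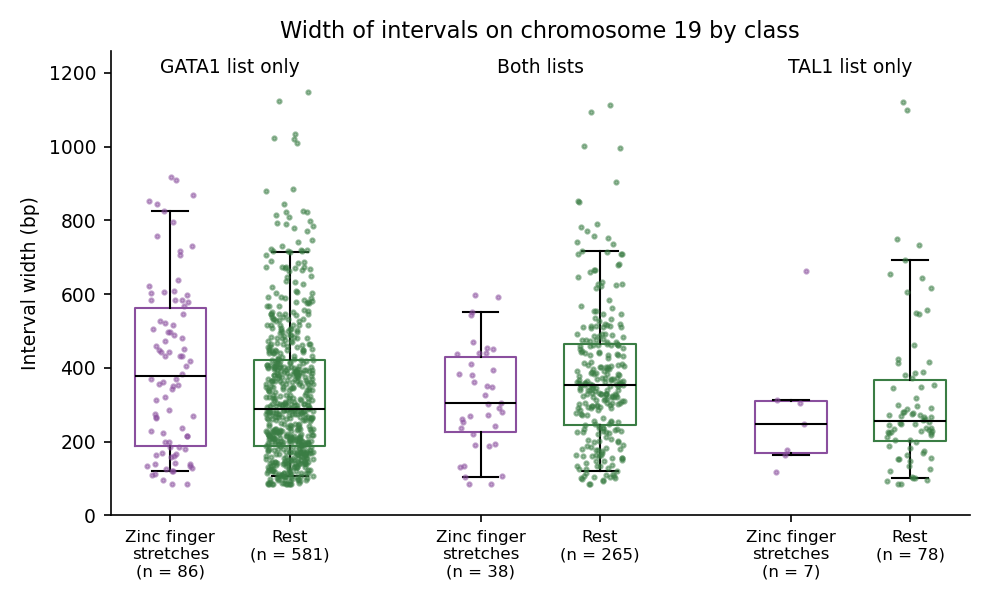
Width in bp of each interval on chromosome 19 by class, in the zinc finger stretches (purple) and the rest (green); boxes give quartiles and median, whiskers the 5th and 95th percentiles, and points single intervals, spread sideways. GATA1-only intervals have medians of 377 bp in the stretches and 289 bp in the rest, and intervals in both lists 304 bp and 354 bp.

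The wide GATA1-only intervals of the stretches mostly stood alone. Of the 27, 22 (81.5%, 61.9 to 93.7%) had no other interval within that distance, against 46 of 97 (47.4%, 37.2 to 57.8%) in the rest, and 26 of 59 (44.1%, 31.2 to 57.6%) narrower GATA1-only intervals in the stretches. Their median distance to a TAL1 interval was 85.7 kb in the stretches and 30.2 kb in the rest, and 12 of the 27 were over 100 kb away. In stretch 2, 6 of the 7 GATA1-only intervals were at least 500 bp wide, from 568 bp (chr19:36618596-36619163) to 852 bp (chr19:36705340-36706191), and the seventh measured 460 bp. In stretch 4 the widest measured 918 bp (chr19:59084116-59085033) and 910 bp (chr19:58838136-58839045), and 17 of 58 reached 500 bp. Stretch 1 had 3 of 19, the 3 nearest its lower boundary. Per megabase, wide GATA1-only intervals numbered 1.94 in the stretches and 2.37 in the rest, while narrower ones numbered 4.24 and 11.8. Width was the sole measure beside position that the lists give, and what it reflects was not tested. Intervals in both lists had identical ends, so the edges cannot be taken as set by the library of 1 factor alone.

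The chromosome as a whole also stood at the wide end for GATA1-only intervals. Chromosome 19 had the widest GATA1-only intervals of the 23 chromosomes by median (298 bp), the largest share of them at 500 bp or more (18.6%) and the smallest difference between the medians of intervals in both lists and GATA1-only intervals (53 bp). Chromosome 14 was next in median width (292 bp) and in that difference (61 bp), and chromosome 6 in the share (13.8%). When the narrower intervals, those below the median width of all distinct ones, were left out, the share of GATA1 intervals also in the TAL1 list differed by -5.15 points (-9.25 to -0.87) between chromosome 19 and the other chromosomes, and by -11.0 points (-21.1 to 1.11) between the stretches and the rest. With all widths kept, the first difference was 0.39 points (-2.51 to 3.44).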

How the data were processed

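GATA1 and TAL1 ChIP-seq of control K562 cells was used, 1 library each, grouped by title. Nuclease-cut chromatin was precipitated, per the labels. The deposited lists give positions alone, with no score, signal or p-value. Per the submitters' processing notes the tools were Trimmomatic, Bowtie2, MACS2 and deepTools, with build hg19; thresholds and any pooling of reads are not stated there. Intervals found in both lists had identical ends, so distinct rows were compared. On chromosome 19, 971 GATA1 and 388 TAL1 rows made 1056 distinct intervals, with 0 overlaps and gaps of at least 37 bp. With identical ends and 0 overlaps, the edges cannot be taken as set by each library apart.

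Counts used Python 3.11.15, pandas 2.3.3 and scipy 1.17.1, checked on simulated lists; bedtools 2.31.1 gave the same 124 GATA1 and 45 TAL1 intervals in the stretches. Newcombe intervals came from statsmodels 0.14.6, bands from circlize 0.4.16, figures from matplotlib 3.10.9, gene names and promoters from RefSeq GRCh38.p14. A zinc finger name is ZNF, ZFP or ZSCAN with a number, without ZFP36 and readthrough genes. Clusters joined gaps of at most 12.5 kb. Named regions were the stretches, the 3 bins with most and the 3 with fewest intervals, with bins tied at the third place also named, and the 4 largest clusters of each compartment; the sequences, single intervals and bands were chosen after values were seen. The members and lists were chosen with earlier results of these data known.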

Additional observations from a re-analysis of the deposited data

How the results depend on the processing

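Of 101 values recomputed under alternatives, 94 stayed within the 95% interval of the value reported and 7 moved outside it. A reversal was counted only where the reported 95% interval excluded a difference of 0 or a ratio of 1, and there were 0. Assigning intervals by any base in a stretch, in place of the midpoint, gave identical values, so those values are no separate check. Without stretch 4 the density ratio of the stretches to the rest was 0.259 for GATA1 and 0.202 for TAL1, against 0.431 and 0.386, because that stretch is the densest of the 4. Against the other chromosomes, in an alternative added after the data were seen, the ratios without it were 0.709 and 0.573, against 1.18 and 1.10. These passed from above 1 to below 1 but could not count as reversed, since the intervals of 1.18 and 1.10 include 1. For the ratios to the rest, over the other alternatives values ran up to 0.509 and 0.453. Leaving out intervals narrower than the median moved the share of GATA1 intervals also in the TAL1 list to -11.0 points (stretches minus rest) and -5.15 points (chromosome 19 minus other chromosomes), and the GATA1 density ratio of chromosome 19 to other chromosomes to 2.56, against 2.34; the cause was not tested. Joining intervals within 2 kb to 1 site gave ratios of 0.445 and 0.390 for the stretches. The median width of GATA1-only intervals was 64 to 144 bp greater in the stretches than in the rest. With the reported settings the 95% interval of that difference, with the median of the rest taken as fixed, was -2 to 161 bp. It was -73 to 226 bp without stretch 4 and 55 to 207 bp without stretch 1, so a wider median was not established. The share of wide ones, with the limit moved 100 bp either way or a stretch left out, was 9.48 to 19.4 points greater. These alternatives on width were added after the data were seen. Positions relative to gene starts, motifs inside intervals and lengths without unsequenced bases were not run, since no hg19 genome or annotation was used here. No paired analysis was possible because each factor has 1 library. The unknown depth of both libraries limits any statement on intervals that are not listed.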
